A study of Mus musculus with 23 samples.

Results

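The cell cycle is read here through 43 genes whose symbols were given as a list and were found in both tables of normalized counts, 43 of 35455 genes in the table with the PI3K arm and of 35454 in the table with the PGC1α arm. Of these, 19 act at the G1/S transition and in DNA replication and 24 act in G2 and mitosis, and all 43 had a mean normalized count of at least 10 in both tables and were tested. The cells were tdTomato+ cells sorted by flow cytometry from lungs of mice 3 to 4 months old on a mixed genetic background, in which an adenovirus carrying Cre under the *Sftpc* promoter, active in alveolar type 2 (AT2) cells, switched on BRAFV600E and tdTomato from the *Braf* CAT allele. All mice carried 1 such allele. The BRAFV600E/PI3KαH1047R mice carried in addition 1 *Pik3ca* HR allele, which turns on PI3KαH1047R with the same Cre. There were 1, 3 and 2 BRAFV600E libraries and 2, 4 and 2 BRAFV600E/PI3KαH1047R libraries at 2, 6 and 12 weeks after infection (p.i.). A separate cohort at 12 weeks p.i. held 5 BRAFV600E/PGC1αHet and 4 BRAFV600E/PGC1αNull libraries, whose mice carried 1 or 2 floxed *Ppargc1a* alleles. Mice analyzed at 12 weeks p.i. had received a lower dose of virus than those analyzed at 2 and 6 weeks, so that week and dose cannot be told apart, and the 2 week BRAFV600E library came from a female whereas both 2 week BRAFV600E/PI3KαH1047R libraries came from males.

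At the G1/S transition cyclin E with its kinase partner relieves the retinoblastoma proteins' hold on E2F factors, and E2F targets such as the MCM helicase subunits, ribonucleotide reductase and thymidylate synthase then rise to support DNA synthesis. Genes of G2 and mitosis are held down in quiescent cells by the DREAM complex and are switched on later, when its MuvB core binds B-MYB and then FOXM1 instead, and their promoters often hold a CHR element together with CCAAT boxes. *Mki67* and *Top2a* are widely used to mark dividing cells in lung tumors. In bulk RNA of sorted cells, fewer dividing cells and less RNA of these genes per cell cannot be told apart.

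Normalized counts summed to 16433800 to 20287300 in the 14 libraries of the PI3K table and to 7115750 to 9159570 in the 9 libraries of the PGC1α table. Read depth is unknown, so that no counting error can be given. As the tables were normalized separately, levels are not compared between them. All 10 AT2 markers were above 0 in every library. The summed AT2 markers were lowest in the 2 BRAFV600E/PI3KαH1047R libraries at 2 weeks (115561 and 57634) and in replicate 1 at 6 weeks (231167), against 467314 or more elsewhere in that table. In those same 3 libraries the 10 endothelial markers summed to 57839, 59893 and 84603, against 5901 to 40054 elsewhere. The 6 fibroblast markers likewise summed to 19849 to 30347 there, against 2069 to 11294 elsewhere. The Y-linked gene *Kdm5d* went against the sex label in both 12 week BRAFV600E/PI3KαH1047R libraries, with 502 in replicate 1, given as male, and 4728 in replicate 2, given as female, and the pair are named here as labelled. In the PGC1α table *Kdm5d* was at 228 to 962 in the 6 libraries given as female, 4 of them at 635 or more, and at 1291 to 1941 in the 3 given as male.

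The letters that E2F factors and the MuvB complexes are known to read were looked for in RefSeq promoters (GRCm38.p6), from 250 bases before to 50 after each start. The motifs, searched on both strands, were the CHR element TTTGAA, for E2F either TTGGCGC or TTCGCGC or else TTGCCGC or TTCCCGC, and for NF-Y the letters CCAAT, and an E2F match can overlap another E2F match or a CCAAT box. For the G1/S genes 16 of 19 were matched, with 18 windows, and for the G2/M genes 18 of 24, with 18 windows. A CHR was in 13 of the 18 G2/M windows (72.2%) and in 1 of the 18 G1/S windows (5.56%), against 17.9% of all 32851 windows. An E2F motif was in 11 G1/S windows (61.1%) and 3 G2/M windows (16.7%), against 9.57% of all. CCAAT was in 11 (61.1%) and 15 (83.3%), against 37.4% of all, and a CHR with CCAAT in 1 window in 1 (5.56%) and 12 (66.7%), against 6.95%. These are matches of letters and not sites. The lines here give the 250 bases before the start of 2 G2/M genes, *Cdc20* (chr4:118437344-118437593, minus strand) and *Mki67* (chr7:135716380-135716629, minus strand), and of 2 G1/S genes, *Mcm5* (chr8:75109259-75109508, plus strand) and *Uhrf1* (chr17:56304063-56304312, plus strand), because each is described by library in what follows, *Mcm5* as a gene whose values did not separate the weeks. Capitals mark the motifs on either strand.
Cdc20: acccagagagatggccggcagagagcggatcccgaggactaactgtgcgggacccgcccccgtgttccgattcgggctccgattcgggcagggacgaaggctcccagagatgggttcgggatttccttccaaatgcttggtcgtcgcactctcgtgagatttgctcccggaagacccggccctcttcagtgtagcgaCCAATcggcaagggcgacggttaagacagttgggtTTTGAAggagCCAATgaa
Mki67: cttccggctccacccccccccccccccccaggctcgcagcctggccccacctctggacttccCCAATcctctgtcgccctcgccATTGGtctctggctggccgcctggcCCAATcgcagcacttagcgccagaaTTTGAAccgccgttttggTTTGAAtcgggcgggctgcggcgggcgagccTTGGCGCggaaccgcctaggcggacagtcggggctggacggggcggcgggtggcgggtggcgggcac
Mcm5: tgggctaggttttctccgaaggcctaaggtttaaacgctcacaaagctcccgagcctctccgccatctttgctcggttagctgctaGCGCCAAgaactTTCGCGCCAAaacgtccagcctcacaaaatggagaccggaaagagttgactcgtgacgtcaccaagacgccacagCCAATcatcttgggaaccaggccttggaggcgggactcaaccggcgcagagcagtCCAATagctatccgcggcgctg
Uhrf1: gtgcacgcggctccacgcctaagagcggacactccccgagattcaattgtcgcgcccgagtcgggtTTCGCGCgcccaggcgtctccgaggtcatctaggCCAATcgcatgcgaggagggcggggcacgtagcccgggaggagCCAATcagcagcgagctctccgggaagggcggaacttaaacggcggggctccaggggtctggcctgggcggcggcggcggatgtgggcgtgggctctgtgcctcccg
The *Cdc20* sequence holds a CHR between CCAAT boxes close to the start and *Mki67* holds 2 CHR copies with CCAAT boxes and 1 E2F motif. *Mcm5* and *Uhrf1* also hold E2F motifs and CCAAT boxes, and no CHR in these letters.

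Each phase was first described by the mean log2 (normalized count + 1) of its genes in a library. For the G2/M genes this was 4.83 in the BRAFV600E library at 2 weeks, 7.46, 7.25 and 7.10 at 6 weeks, and 5.92 and 7.43 at 12 weeks. With PI3KαH1047R it was 5.91 and 5.70 at 2 weeks, 6.04, 7.13, 7.21 and 7.15 at 6 weeks, and 6.37 and 6.60 at 12 weeks. All 7 libraries at 6 weeks were above all 3 at 2 weeks, with replicate 1 of BRAFV600E/PI3KαH1047R the lowest of the 7. For the G1/S genes the values were 6.85 at 2 weeks, 7.70, 7.65 and 7.51 at 6 weeks and 6.22 and 7.31 at 12 weeks in BRAFV600E-driven tumors. They were 6.60 and 6.58, then 7.04, 7.36, 7.51 and 7.63, then 7.17 and 7.01 in BRAFV600E/PI3KαH1047R-driven tumors. The G1/S values spanned a smaller range than the G2/M values, and the 2 week BRAFV600E library stood apart in that its G2/M mean was 2.02 below its G1/S mean, a gap that was at most 1.01 in the other 13. That library was the lowest of the 14 for 12 of the 43 genes, and the 2 week BRAFV600E/PI3KαH1047R libraries were the lowest for 9 and 6.

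**Figure D1:**
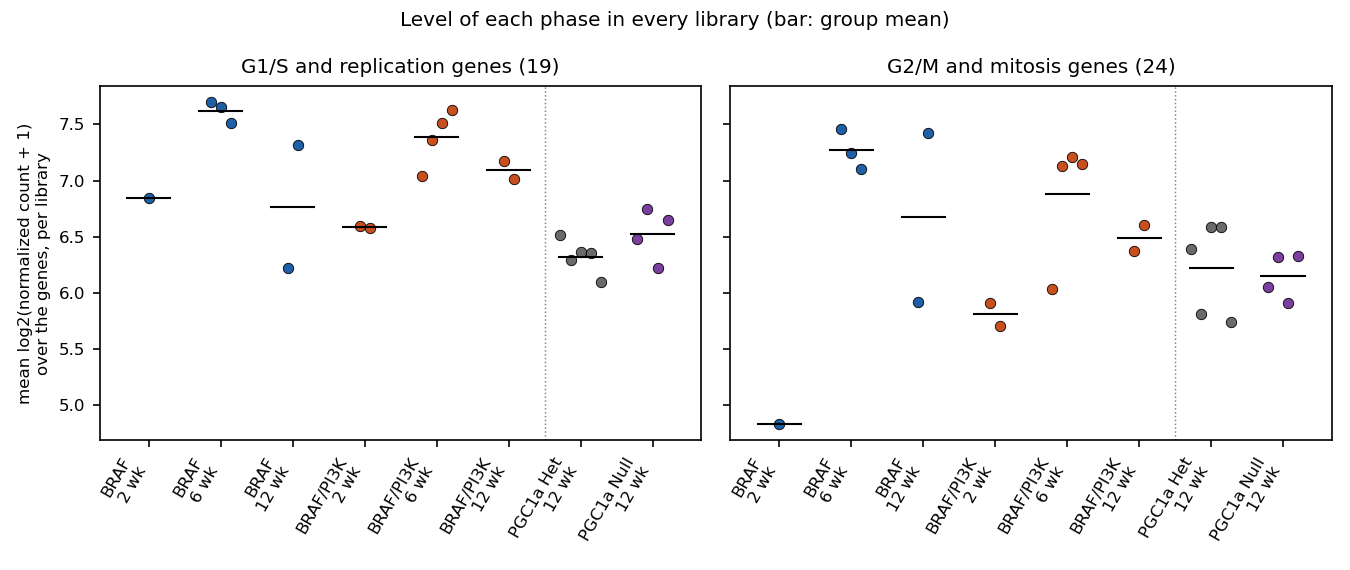
Mean log2 (normalized count + 1) of the 19 G1/S genes and of the 24 G2/M genes in each library, by genotype and week and for the PGC1α cohort, with points for libraries and bars for group means. Among the 14 libraries left of the dotted line, which parts the separately normalized tables, those of 2 weeks lie lowest for the G2/M genes (4.83 to 5.91) and the 6 week libraries lie at 6.04 to 7.46.

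The course from 2 to 6 weeks was compared over both genotypes, with genotype in the fit. Of the G2/M genes 23 of 24 were higher at 6 weeks, with a median log2 fold change of 1.46, and of the G1/S genes 15 of 19, with a median of 0.56, whereas 51.4% of the 17558 genes tested were higher and their median was 0.0178. By limma, 21 of the 43 genes had an unadjusted p under 0.05, all of them higher at 6 weeks (6 G1/S and 15 G2/M), against 6.58% of all genes higher and 5.35% lower at that limit. None of the 43 passed the adjusted threshold of 0.05, which 9 genes in all passed (0.0513%). In 9 of the 43 genes every 6 week library was above every 2 week library, against 1.49% of all genes, and in none was every one below, against 1.61%. These 9 were *Gmnn*, *Rrm2*, *Pcna* and *Uhrf1* of G1/S and *Plk1*, *Cdc20*, *Bub1*, *Cenpe* and *Nusap1* of G2/M. An exact two-sided permutation of week labels within each genotype, chosen after seeing the data, gave p under 0.05 in 12 of the 43, all higher, against 3.66% of all genes, and its 60 splits cannot give less than 0.0167. Leaving out 1 library moved the fitted value of 26 of the 43 genes by over 1.5 times, 12 of which changed sign.

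The mitotic regulators covered the widest range. *Plk1*, the kinase that drives entry into and passage through mitosis, was listed at 0 in the BRAFV600E library at 2 weeks and had 30.8, 59.8 and 51.2 normalized counts at 6 weeks and 5.98 and 13.3 at 12 weeks. In BRAFV600E/PI3KαH1047R-driven tumors *Plk1* was listed at 0 and had 11.8 at 2 weeks, then 30.5, 66.7, 23 and 14.6, then 81.5 and 18.6. Its log2 fold change from 2 to 6 weeks was 4.01 ± 0.88 (SE, limma, adjusted p = 0.125), which fell to 2.68 when 4 rather than 1 was added before the log because 2 of the 3 libraries at 2 weeks are listed at 0.

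*Cdc20*, which activates the anaphase-promoting complex, had 6.87 normalized counts at 2 weeks, 111, 34.0 and 250.1 at 6 weeks and 31.5 and 61.5 at 12 weeks in BRAFV600E-driven tumors. In mice that also carried PI3KαH1047R it had 2.09 and 7.18, then 81.5, 31.2, 114 and 35.1, then 16.9 and 118. Every library at 6 and 12 weeks was therefore above every library at 2 weeks, with a log2 fold change from 2 to 6 weeks of 3.59 ± 0.71 (by limma, adjusted p = 0.0963). *Bub1b*, a checkpoint kinase of the spindle assembly, was at 0.365 in the 2 week BRAFV600E library and at 181, 181 and 62.5 at 6 weeks and 27.7 and 221 at 12 weeks. In the BRAFV600E/PI3KαH1047R libraries it was at 63.0 and 62.8 at 2 weeks and at 108, 209, 268 and 86.7 at 6 weeks and 16.2 and 36.6 at 12 weeks, so that the libraries at 2 weeks differed widely from each other, and its fitted log2 fold change of 3.07 ± 1.04 (adjusted p = 0.282) was 0.95 without the 2 week BRAFV600E library.

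The division markers are given next. *Mki67* had 439 normalized counts at 2 weeks, 2348, 2401 and 2450 at 6 weeks, and 595 and 1828 at 12 weeks in BRAFV600E-driven tumors. With PI3KαH1047R it had 599 and 366, then 494, 1659, 1623 and 1529, then 1211 and 900. Replicate 1 of the BRAFV600E/PI3KαH1047R group at 6 weeks lay within the 2 week range and the other 6 libraries at that week were above it. The log2 fold change from 2 to 6 weeks was 1.76 ± 0.43 (by limma, adjusted p = 0.153). Without that replicate it was 2.05 and passed the threshold (adjusted p = 0.0217), and the endothelial markers summed highest in the same library, whose part in the result was not tested.

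*Top2a*, the topoisomerase that untangles sister chromatids, had 256 normalized counts at 2 weeks, 1613, 789 and 653 at 6 weeks, and 419 and 651 at 12 weeks in BRAFV600E-driven tumors. In the BRAFV600E/PI3KαH1047R group *Top2a* had 329 and 232, then 209, 595, 832 and 797, then 706 and 478, with a log2 fold change from 2 to 6 weeks of 1.30 ± 0.44 (adjusted p = 0.278). As for *Mki67*, the low library at 6 weeks was replicate 1 of BRAFV600E/PI3KαH1047R.

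The cyclins and kinase of mitotic entry were less uniform. *Ccnb1*, cyclin B1, had 18.5 normalized counts at 2 weeks, 121, 292 and 62.4 at 6 weeks and 67.9 and 263 at 12 weeks in BRAFV600E-driven tumors. In BRAFV600E/PI3KαH1047R-driven tumors it had 110.0 and 71.6, then 52.7, 87.8, 94.9 and 236, then 52.0 and 71.5, and the 6 week values overlapped those of both other weeks. *Ccnb2*, cyclin B2, went from 5.84 to 132, 84.9 and 91.1 and then 43.4 and 221 in BRAFV600E-driven tumors, and was at 30.9 and 20.8, then 12.7, 31.5, 66.8 and 49.1, then 17.4 and 24.8 in BRAFV600E/PI3KαH1047R-driven tumors.

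*Cdk1*, the kinase these cyclins activate, had no shared course over the weeks. It was at 58.7, then 170, 76.1 and 113, then 116 and 128 normalized counts in BRAFV600E-driven tumors and at 185 and 16.2, then 41.3, 29.8, 44.7 and 44.6, then 122 and 32.3 in BRAFV600E/PI3KαH1047R-driven tumors. The log2 fold change from 2 to 6 weeks was 0.03 ± 0.63, and the 2 week BRAFV600E/PI3KαH1047R libraries spanned the whole range of the gene. *Foxm1*, a transcription factor of G2/M genes, was as scattered, at 83.0, then 168, 95.9 and 68.8, then 44.7 and 76.1 in BRAFV600E-driven tumors. It was at 350 and 88.1, then 52.0, 505, 141 and 72.0, then 256 and 79.5 in BRAFV600E/PI3KαH1047R-driven tumors, with a log2 fold change of -0.16 ± 0.67, the 1 G2/M gene that was lower at 6 weeks.

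Other genes of spindle and kinetochore were higher at 6 weeks with the following fitted values, all with limma adjusted p of 0.190 or more. Log2 fold changes were 2.59 for the mitotic kinase *Aurka* (1.60 or 3.95 without replicate 1 or 2 of BRAFV600E/PI3KαH1047R at 2 weeks), 2.26 for the checkpoint kinase *Bub1*, 2.14 for the spindle protein *Nusap1*, 1.91 and 1.87 for the kinetochore proteins *Cenpf* and *Cenpe*, and 1.89 for the phosphatase *Cdc25c* that activates CDK1. *Ndc80*, a kinetochore subunit, was at 1.78 and *Ccna2*, cyclin A2, at 1.2. Values near 0 were found for the inhibitor of apoptosis and passenger protein *Birc5* (0.12) and the kinesin *Kif20a* (0.08), so that the group did not move as a unit.

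**Figure D2:**
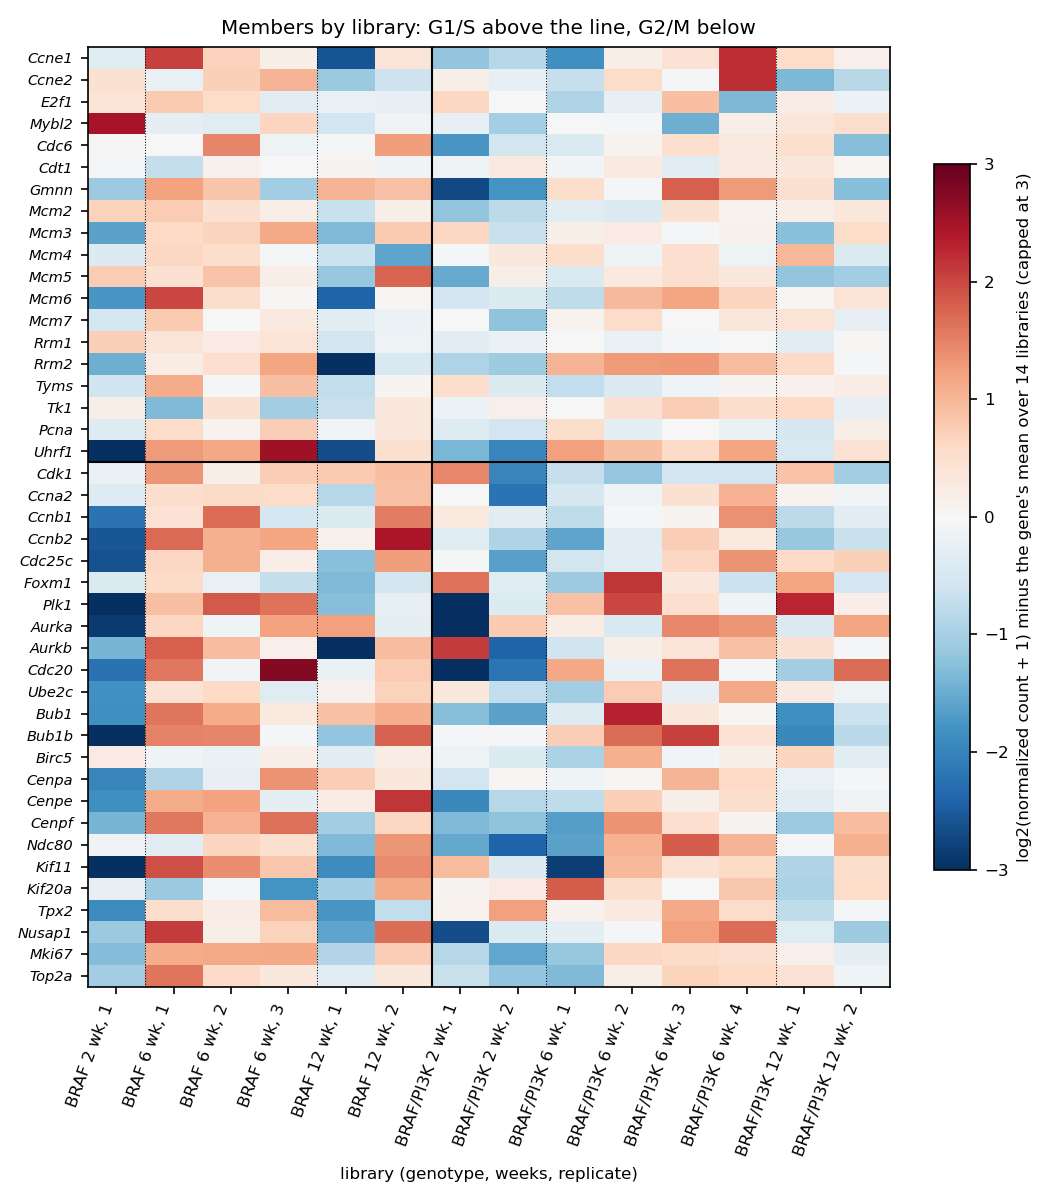
Each of the 43 genes in each of the 14 libraries as log2 (normalized count + 1) minus the gene's mean over the libraries, capped at 3 in either direction, with genes in rows by phase and libraries in columns by genotype and week. The 2 week columns are mostly below the genes' means, the BRAFV600E one most of all in the G2/M rows, and the 6 week columns are mostly above except replicate 1 of BRAFV600E/PI3KαH1047R.

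Among the G1/S genes the widest course was that of *Uhrf1*, which brings the maintenance methyltransferase to newly replicated DNA. It had 6.92 normalized counts at 2 weeks, 187, 174 and 448 at 6 weeks and 11.2 and 107 at 12 weeks in BRAFV600E-driven tumors. In the double mutant tumors it had 29.2 and 18.6, then 181, 143, 115 and 175, then 54.7 and 103. The 6 week libraries were above all libraries at both other weeks, with a log2 fold change from 2 to 6 weeks of 3.51 ± 0.65 (by limma, adjusted p = 0.0959) and from 6 to 12 weeks of -1.81 ± 0.59 (adjusted p = 0.883). *Rrm2*, the regulated subunit of ribonucleotide reductase, had 22.7 at 2 weeks, 75.8, 91.2 and 148 at 6 weeks and 6.73 and 46.3 at 12 weeks in BRAFV600E-driven tumors. With PI3KαH1047R *Rrm2* had 33.2 and 30.3, then 132, 157, 159 and 124, then 97.2 and 63.0. Its log2 fold changes were 2.16 ± 0.52 (adjusted p = 0.153) and -1.60 ± 0.47 (adjusted p = 0.841) for the same steps. Without replicate 1 of the BRAFV600E group at 12 weeks, the step from 2 to 6 weeks passed the threshold for both *Uhrf1* (3.47, adjusted p = 0.0213) and *Rrm2* (2.13, adjusted p = 0.0381), and the step from 6 to 12 weeks shrank to -1.11 for *Uhrf1* and -0.94 for *Rrm2*.

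*Pcna*, the sliding clamp of the replicative polymerases, had 703 normalized counts at 2 weeks, 1357, 999 and 1536 at 6 weeks and 865 and 1148 at 12 weeks in BRAFV600E-driven tumors. It had 705 and 618, then 1320.3, 750.0, 924 and 804, then 652 and 1046 in BRAFV600E/PI3KαH1047R-driven tumors. The groups at 2 and 6 weeks did not overlap, although the log2 fold change was only 0.62 ± 0.24 (adjusted p = 0.326). *Gmnn*, geminin, which blocks a new round of origin licensing and is counted here with its target *Cdt1*, had the next largest fitted value after *Uhrf1* (2.49 ± 0.69, adjusted p = 0.200).

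The helicase subunits differed among themselves. *Mcm2* had 362 normalized counts at 2 weeks, 380.0, 309 and 258 at 6 weeks and 141 and 255 at 12 weeks in BRAFV600E-driven tumors, and 98.6 and 130, then 180, 168, 310 and 241, then 257 and 279 in BRAFV600E/PI3KαH1047R-driven tumors. *Mcm5* had 168, then 135, 179 and 114, then 44.3 and 335 in BRAFV600E-driven tumors and 34.2 and 111, then 73.2, 121, 139 and 123, then 42.7 and 47.7 in BRAFV600E/PI3KαH1047R-driven tumors. Over both genotypes neither gene separated the weeks. In BRAFV600E/PI3KαH1047R-driven tumors alone both 2 week libraries were below all later ones for *Mcm2*. The log2 fold change from 2 to 6 weeks was 0.56 ± 0.38 for *Mcm2* and 0.42 ± 0.55 for *Mcm5*. For the other subunits it was 1.61 for *Mcm6*, 0.96 for *Mcm3*, 0.88 for *Mcm7* and 0.35 for *Mcm4*.

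Of the transcription factors, *E2f1* had 102 normalized counts at 2 weeks, 133, 111 and 59.7 at 6 weeks and 65.4 and 64.6 at 12 weeks in BRAFV600E-driven tumors. It had 117 and 76.7, then 40.6, 63.9, 143 and 29.3, then 89.0 and 67.5 in BRAFV600E/PI3KαH1047R-driven tumors, with a log2 fold change from 2 to 6 weeks of -0.46 ± 0.47 that was -0.24 to -0.68 with 1 library left out, at its smallest without BRAFV600E/PI3KαH1047R replicate 4 at 6 weeks and next without replicate 1 at 2 weeks. *Mybl2*, B-MYB, had its highest value of the 14 libraries, 214, in the 2 week BRAFV600E library and 31.2, 29.1 and 59.5 at 6 weeks and 24.9 and 35.1 at 12 weeks. In BRAFV600E/PI3KαH1047R-driven tumors *Mybl2* had 31.4 and 18.0, then 37.2, 36.1, 13 and 42.7, then 48.1 and 54.7. Its log2 fold change of -0.64 ± 0.63 turned to 0.48 without the 2 week BRAFV600E library. The enzymes of nucleotide supply *Tk1* (-0.01), *Rrm1* (0.01) and *Tyms* (0.25) and the licensing factor *Cdt1* (-0.07) had fitted values near 0.

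**Figure D3:**
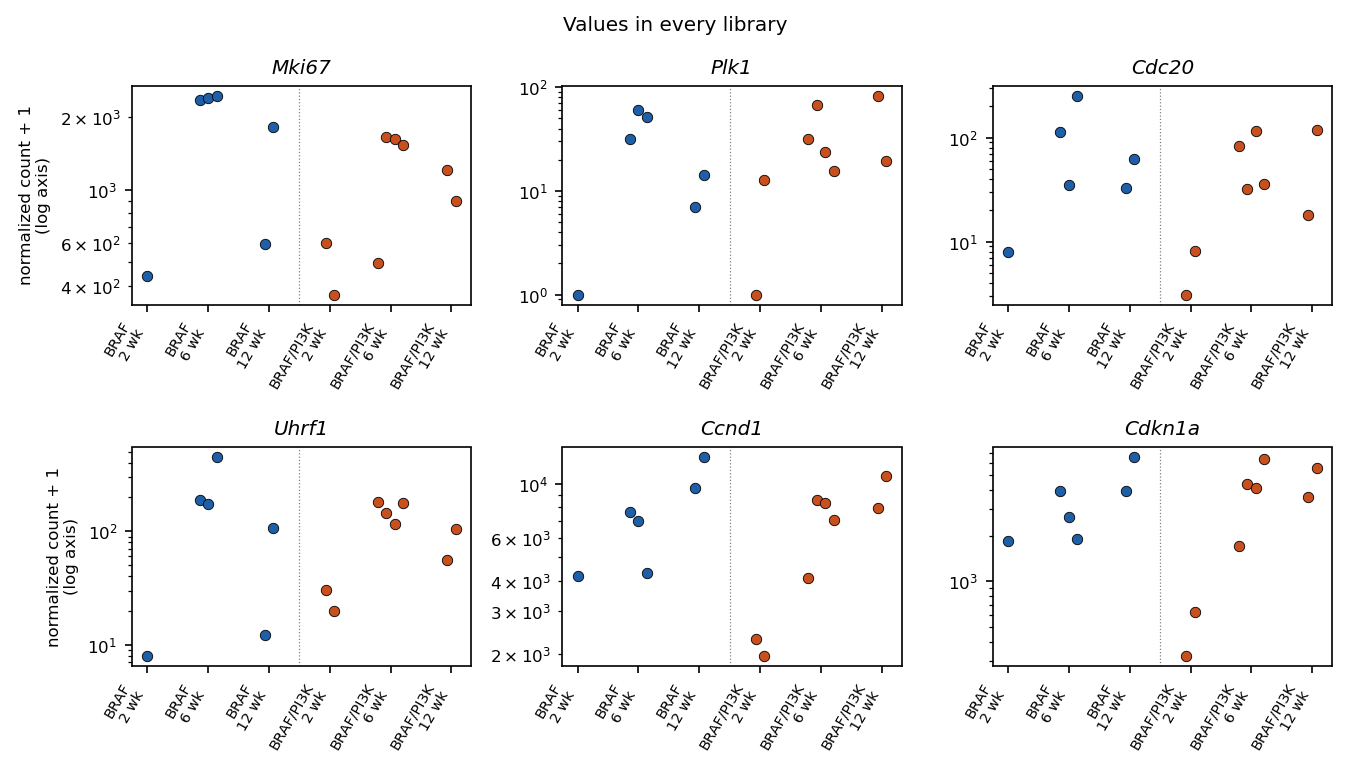
Normalized count + 1 on a log axis for *Mki67*, *Plk1*, *Cdc20*, *Uhrf1*, *Ccnd1* and *Cdkn1a* in each of the 14 libraries, by week and genotype. *Cdc20* and *Uhrf1* at 6 weeks lie above every 2 week library, and replicate 1 of BRAFV600E/PI3KαH1047R lies low for *Mki67* (494) among 6 week libraries of 1529 to 2450.

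Within BRAFV600E-driven tumors 34 of the 43 genes were higher at 6 than at 2 weeks (50.5% of all genes), with medians of 0.77 for G1/S and 2.47 for G2/M, the former being 0.41 over the genes with a mean of at least 40. Of these, 21 had an unadjusted p under 0.05 by limma, against 4.36% of all genes, and *Mybl2* was lower at that limit, against 2.92%. That comparison rests on 1 library at 2 weeks, whose spread was taken from the other groups. Within BRAFV600E/PI3KαH1047R-driven tumors 36 were higher (50.6% of all genes), with medians of 0.54 and 1.04 and 11 at the unadjusted limit, with none lower, against 7.72% of all genes higher and 5.64% lower. Those 11 were *Mcm2*, *Rrm2*, *Uhrf1*, *Gmnn*, *Mki67*, *Cenpe*, *Bub1*, *Nusap1*, *Ndc80*, *Plk1* and *Cdc20*. Without replicate 1 at 6 weeks, *Mki67* (1.77, adjusted p = 0.0364) and *Ndc80* (3.27, adjusted p = 0.0472) passed the adjusted threshold in BRAFV600E/PI3KαH1047R-driven tumors and the G1/S median was 0.90. No member passed it with all libraries in either genotype, and of all genes 0.159% passed in BRAFV600E/PI3KαH1047R-driven and 0% in BRAFV600E-driven tumors.

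The difference between those courses was tested as an interaction. For the G2/M genes it was below 0, a smaller step in BRAFV600E/PI3KαH1047R-driven tumors, in 19 of 24 (49.7% of all genes), with a median of -1.34, against a median of 0.0068 over all genes, whereas 10 of 19 G1/S genes were above 0, with a median of 0.03. At an unadjusted p under 0.05, 6 of the 43 were lower, against 4.66% of all genes, and none passed after adjustment, the lowest adjusted p being 0.343 for *Bub1b* (-5.30). The others were *Kif11* (-4.84), a motor that separates spindle poles, *Ccnb2* (-3.48), the spindle assembly factor *Tpx2* (-2.63), *Mcm3* (-2.24) and *Tyms* (-1.62), with *Mybl2* higher (2.76, against 4.28% of all genes). All these values share the single BRAFV600E library at 2 weeks.

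The markers of other cells were summed beside this course. In the 2 week BRAFV600E library the endothelial sum was 7028, against 9835, 30287 and 40054 at 6 weeks, the fibroblast sum 10522, against 4474, 10391 and 8996, and the AT2 sum 650337, against 467314 or more. The endothelial sum was thus lower in it than in the 3 libraries at 6 weeks, and the fibroblast sum was close to their highest. In that library lymphocyte markers summed to 520, against 594, 1072 and 2142, and erythroid markers to 751, against 1224, 1273 and 3926. Its macrophage and neutrophil sums lay within the 6 week range of this genotype. In mice that also carried PI3KαH1047R the 2 libraries at 2 weeks and replicate 1 at 6 weeks held both the lowest G2/M means and the highest endothelial and fibroblast sums. Ciliated markers summed to 69.7 to 253 in all 14 libraries. The part of these markers in the result was not tested in either genotype.

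From 6 to 12 weeks 16 of 19 G1/S and 20 of 24 G2/M genes were lower, with medians of -0.39 and -0.33 against -0.0041 over all genes and 50.4% of genes lower. Without BRAFV600E replicate 1 at 12 weeks the medians were -0.21 and -0.12, without BRAFV600E replicate 2 at 12 weeks the G2/M median was -0.69, and it was -0.56 without BRAFV600E/PI3KαH1047R replicate 1 at 6 weeks. By limma none passed the adjusted threshold, nor did any of the 17558 genes, of which 933 (5.31%) had an unadjusted p under 0.05, and 4 of the 43 had an unadjusted p under 0.05, all lower (*Ccne2*, *Rrm2*, *Uhrf1* and *Tpx2*), against 3.02% of all genes lower and 2.3% higher. *Uhrf1* and *Tpx2* were lower in every 12 week than in every 6 week library, against 0.308% of all genes, and none was higher in every one, against 0.41%. *Ccne2*, cyclin E2, had 104, 202 and 249 normalized counts at 6 weeks and 55.9 and 79.4 at 12 weeks in BRAFV600E-driven tumors. The highest values at this step were 0.41 for *Cdk1* and 0.20 for *Mybl2*, and without replicate 1 or 2 of BRAFV600E/PI3KαH1047R at 12 weeks *Mybl2* was at -0.02 or -0.09 and *Cdk1* at 0.03 or 0.76.

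In BRAFV600E-driven tumors alone 33 genes were lower at 12 weeks (51.1% of all genes), with medians of -0.69 for G1/S and -0.59 for G2/M, and 7 of these at the unadjusted limit with none higher, against 2% of all genes lower and 1.85% higher. The 2 libraries at 12 weeks disagreed: replicate 1 was at 5.92 for the G2/M mean and replicate 2 at 7.43, the second highest of the 14. In the same order their endothelial sums were 30356 and 5901, fibroblast sums 11294 and 2069 and AT2 sums 838079 and 1282980. The part of these markers was not tested. Without replicate 1 the G2/M median was 0.21, and without replicate 2 it was -1.31 and the G1/S median -1.02. With PI3KαH1047R 29 genes were lower (49.8% of all genes), with medians of -0.17 and -0.20 and 3 at the unadjusted limit, against 2.54% of all genes, and 0.0114% of all genes but no member passed after adjustment. The G1/S median there was 0.15 without replicate 2 at 12 weeks and -0.40 without replicate 1 at 6 weeks, and the G2/M median ran from -0.62 without replicate 1 to -0.03 without replicate 3 at 6 weeks. The interaction had medians of 0.61 and 0.27 with 2 genes at the unadjusted limit, *Tyms* (1.48) and *Mcm4* (1.58), both higher, against 1.54% of all genes, and no adjusted call. It too turned on single libraries, the G1/S median being 0.25 without BRAFV600E replicate 1 at 12 weeks and 0.97 without replicate 2, and the G2/M median -0.21 and 1.22 without the same libraries.

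From 2 to 12 weeks 22 of 24 G2/M genes were higher with a median of 1.04, and 13 of 19 G1/S genes with a median of 0.23, against 51.5% of all genes and a median of 0.0226. Leaving out 1 library, the G1/S median ran from 0.04 without BRAFV600E/PI3KαH1047R replicate 1 at 12 weeks to 0.45 without BRAFV600E replicate 1 at 12 weeks, and the G2/M median was 0.58 without the 2 week BRAFV600E library. At an unadjusted p under 0.05, 8 were higher by limma (*Gmnn*, *Uhrf1*, *Cdc25c*, *Plk1*, *Aurka*, *Cdc20*, *Cenpe* and *Mki67*), against 8.64% of all genes, none was lower, against 8.46%, and none passed after adjustment although 138 genes (0.786%) did. *Cdc20*, *Cenpe*, *Cenpf* and *Top2a* were higher in every 12 week than in every 2 week library, against 6.5% of all genes, and *Ccne2* was lower in every one, against 6.71%, shares near those of all genes. Within genotypes 31 of 43 were higher in BRAFV600E-driven tumors (50.4% of all genes), 9 of them at the unadjusted limit with 2 lower, against 4.03% and 3.41% of all genes, and there the G1/S median was -0.31 but 0.66 without replicate 1 at 12 weeks. The G2/M median there was 1.73, and 2.40 without replicate 1 or 1.04 without replicate 2. In the BRAFV600E/PI3KαH1047R group 32 were higher (51.3% of all genes), 4 at the unadjusted limit against 9.26%, with medians of 0.32 and 0.40. These were 0.62 and 0.76 without replicate 2 at 12 weeks, and the G2/M median was 0.17 without replicate 2 and 0.68 without replicate 1 at 2 weeks. In this group the endothelial sums went from 57839 and 59893 at 2 weeks to 10449 and 20966 at 12 weeks. Fibroblast sums went from 21000 and 30347 to 4415 and 8139, and AT2 sums from 115561 and 57634 to 724850 and 950959. The part of these markers was not tested. The steps share the libraries of their common week, and the virus dose differs with the 12 week mice.

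**Figure D4:**
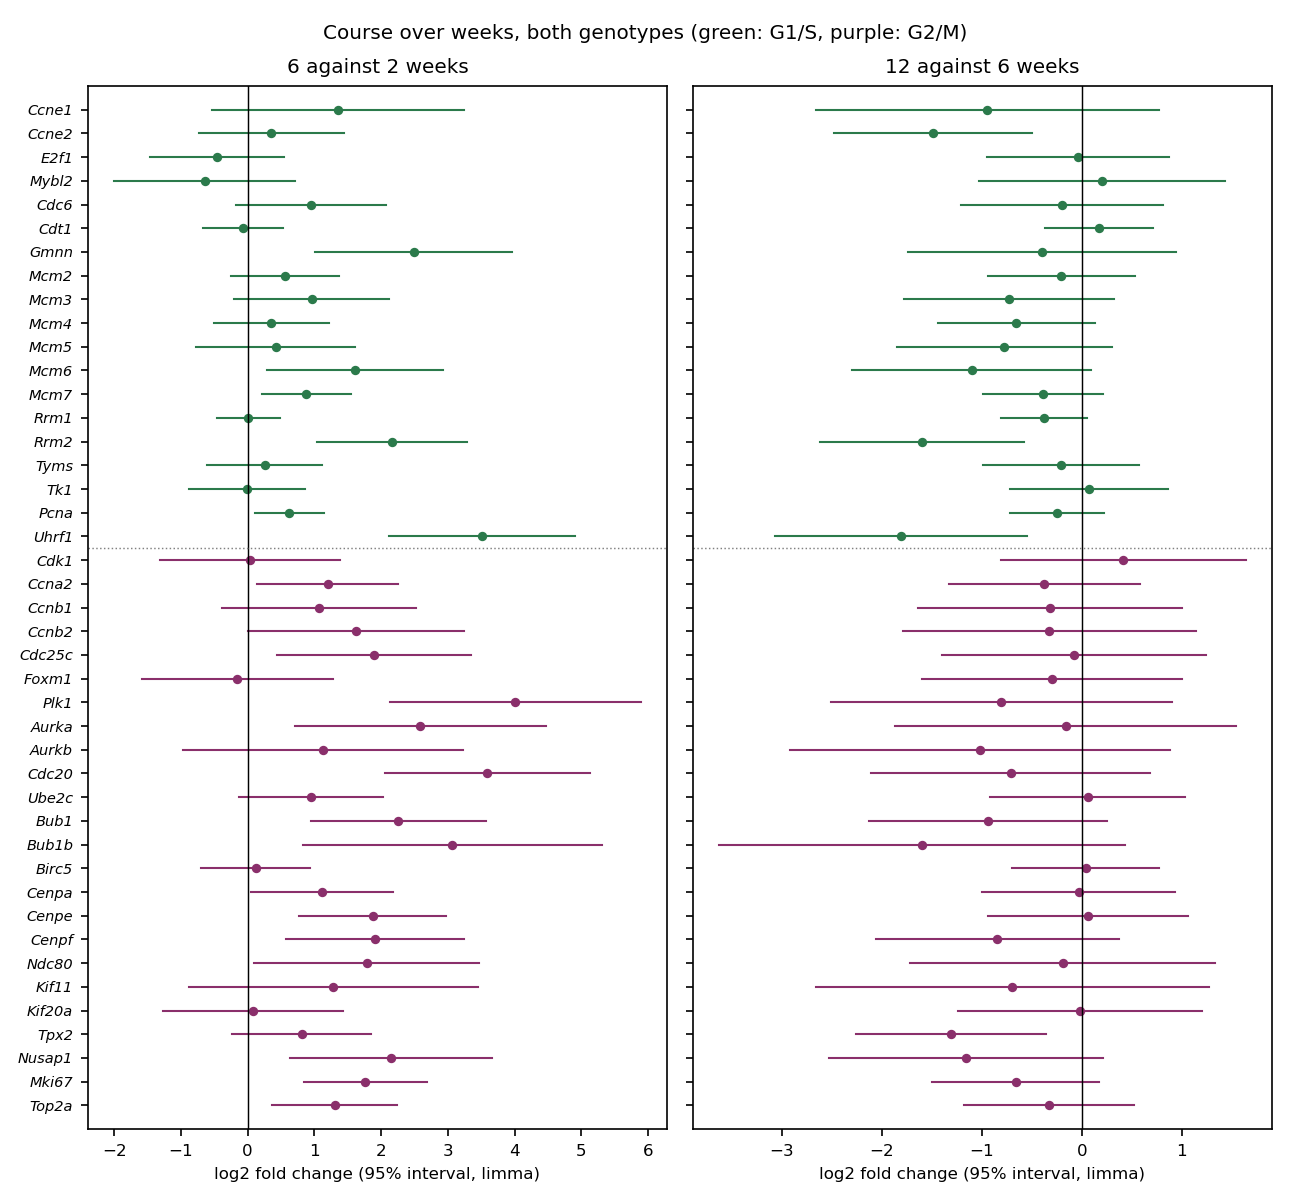
Log2 fold changes of the 43 genes over both genotypes from 2 to 6 weeks and from 6 to 12 weeks, with 95% confidence intervals from limma, grouped by phase. Most points of the first step lie above 0, up to 4.01 for *Plk1*, and most of the second lie below 0, down to -1.81 for *Uhrf1*.

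The effect of PI3KαH1047R was compared with all weeks pooled, 8 against 6 libraries. Of the 43 genes 16 were higher and 27 lower in BRAFV600E/PI3KαH1047R-driven tumors (48.2% of all genes lower), with medians of -0.10 for G1/S and -0.16 for G2/M against 0.0174 over all genes. Leaving out 1 library, the G2/M median ran from -0.50 without the 2 week BRAFV600E library to 0.04 without BRAFV600E replicate 2 at 12 weeks, and the G1/S median from -0.37 without BRAFV600E replicate 1 at 12 weeks to -0.01 without BRAFV600E replicate 1 at 6 weeks. Only *Cdk1* had an unadjusted p under 0.05 by limma (-1.09 ± 0.47, adjusted p = 0.689), against 3.38% of all genes lower and 3.46% higher at that limit. No member passed after adjustment, and 4 genes in all did (0.0228%). None was higher or lower in every library, against 0.0854% and 0.125% of all genes, and none of the 43 had a p under 0.05 by the exact permutation of genotype labels over 3003 splits, against 3.29% higher and 3.44% lower. The other extreme members were *Ccnb2* (-1.15 ± 0.64), *Rrm2* (0.90 ± 0.62) and *Kif20a* (0.89 ± 0.46), each with overlapping groups. *Rrm2* was at 0.39 without BRAFV600E replicate 1 at 12 weeks, and *Ccnb2* at -1.80 without the 2 week BRAFV600E library and -0.79 without BRAFV600E replicate 2 at 12 weeks.

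At 6 weeks, the week with the most libraries, 12 genes were higher and 31 lower in BRAFV600E/PI3KαH1047R-driven tumors (49.5% of all genes lower), with medians of -0.35 and -0.36 against 0.0043 over all genes. Without replicate 1 of BRAFV600E/PI3KαH1047R these were -0.14 and -0.09, and without replicate 4 the G2/M median was -0.59. By limma 2 were higher and 2 lower at an unadjusted p under 0.05, against 2.24% and 1.99% of all genes, and all adjusted p-values of the 43 were 1.00. The lower ones were *Tyms* (-0.97 ± 0.36) and *Ccnb2* (-1.54 ± 0.66). Higher were *Kif20a*, a kinesin of the midzone and cytokinesis, and *Tk1*, thymidine kinase. *Kif20a* had 31.2, 66.9 and 19 normalized counts in BRAFV600E-driven and 243, 98.6, 67.7 and 120.3 in BRAFV600E/PI3KαH1047R-driven tumors, without overlap (1.76 ± 0.65). It was at 57.4 at 2 weeks and 34.2 and 152 at 12 weeks in BRAFV600E-driven tumors against 73.0 and 81.5, and 35.0 and 101, in BRAFV600E/PI3KαH1047R-driven tumors, so that the groups overlapped at 12 weeks.

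*Tk1* had 153, 530 and 185 in BRAFV600E-driven and 379, 530.4, 641 and 557 in BRAFV600E/PI3KαH1047R-driven tumors at 6 weeks (1.07 ± 0.44, and 1.62 without BRAFV600E replicate 2), the upper BRAFV600E library lying within the range of the other group. At 2 weeks *Tk1* had 431 against 340.4 and 424, and at 12 weeks 241 and 481 against 585 and 324, with no common direction. *Kif11* was at 766, 526 and 352 in BRAFV600E-driven and at 27.7, 397, 270 and 306 in BRAFV600E/PI3KαH1047R-driven tumors at 6 weeks (-1.57 ± 0.94). The lowest of these is again replicate 1, without which the log2 fold change was -0.70. *Kif11* was at 24.2 against 390.3 and 150 at 2 weeks, and at 53.6 and 535 against 107 and 291 at 12 weeks.

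Groups at 6 weeks did not overlap for *Kif20a*, higher, against 2.63% of all genes, and for *Mcm3*, *Rrm1*, *Cdk1*, *Ccnb2* and *Mki67*, lower, against 2.6% of all genes. By the exact permutation test, 3 of the 43 had a p under 0.05 (*Mcm3*, *Rrm1* and *Cdk1*, each with p = 0.0286, the smallest that 35 splits can give), against 1.04% of all genes lower. For *Mki67* the BRAFV600E/PI3KαH1047R libraries were at 494 to 1659 and the BRAFV600E libraries at 2348 to 2450, with a log2 fold change of -1.01 ± 0.46 that was -0.58 without replicate 1 of BRAFV600E/PI3KαH1047R. Replicate 1 of BRAFV600E/PI3KαH1047R stands apart in this group, and in it the endothelial markers summed to 84603 against 9835 to 40054 in BRAFV600E-driven tumors. In the remaining 3 libraries, whose *Mki67* values were also below all BRAFV600E libraries, the endothelial sums were 16057 to 22471, and the part of these markers in the result was not tested.

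At 2 weeks 18 of 24 G2/M genes were higher in BRAFV600E/PI3KαH1047R-driven tumors, with a median of 0.76, and 12 of 19 G1/S genes were lower, with a median of -0.10, against 50.6% of all genes higher and 49.4% lower. The G2/M median was 0.51 without replicate 2 of BRAFV600E/PI3KαH1047R and 0.43 over the genes with a mean of at least 40, and the G1/S median -0.40 without replicate 1. By limma 3 genes were higher at an unadjusted p under 0.05 (*Bub1b*, *Tpx2* and *Cenpa*), against 6.93% of all genes, and 3 were lower (*Mybl2*, *Mcm2* and *Rrm1*), against 6.57%. The lowest adjusted p was 0.0886 for *Bub1b*, which passed at 0.0421 when replicate 1 of BRAFV600E/PI3KαH1047R at 6 weeks was left out of the shared spread. The comparison sets 2 males against 1 female, and 3 genes in all passed (0.0171%). Marker sums moved with it, at 57839 and 59893 against 7028 for endothelial, 21000 and 30347 against 10522 for fibroblast and 115561 and 57634 against 650337 for AT2 markers, and their part was not tested. At 12 weeks 26 genes were higher and 17 lower (50.4% of all genes higher), with medians of 0.32 and 0.0041, 2 at the unadjusted limit in either direction (*Rrm2* and *Mcm4* higher, *Bub1* and *Ccnb2* lower), against 2.18% and 1.58% of all genes. The medians were -0.0027 and -0.76 without replicate 1 of BRAFV600E and 0.85 and 0.65 without replicate 2, so that no direction held at 12 weeks. No member passed after adjustment, and 2 genes in all did (0.0114%).

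In the PGC1α cohort the targeted gene was checked first. *Ppargc1a*, which encodes the coactivator PGC1α, had 75.8, 170, 155, 200 and 561 normalized counts in BRAFV600E/PGC1αHet and 72.7, 38.0, 51.6 and 124 in BRAFV600E/PGC1αNull libraries, and the groups overlapped. RNA of a floxed allele can remain after recombination, so the level is a limited check. The mean log2 value of the G1/S genes was 6.32 ± 0.15 (SD, n = 5) in BRAFV600E/PGC1αHet and 6.52 ± 0.23 (n = 4) in BRAFV600E/PGC1αNull, and that of the G2/M genes 6.22 ± 0.42 and 6.15 ± 0.20.

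Of the 43 genes 27 were higher and 16 lower in BRAFV600E/PGC1αNull (51.1% of all genes higher), with medians of 0.089 for G1/S and 0.016 for G2/M against 0.011 over all genes. With 1 library left out the G2/M median took either sign, from -0.11 without BRAFV600E/PGC1αNull replicate 4 to 0.12 without BRAFV600E/PGC1αHet replicate 3, and the G1/S median ran from 0.04 without BRAFV600E/PGC1αHet replicate 5 to 0.22 without BRAFV600E/PGC1αHet replicate 1. None passed the adjusted threshold by limma, nor did any of the 17424 genes, and 2 were lower at an unadjusted p under 0.05, against 1.17% of all genes lower (667 genes, 3.83%, in either direction). *Bub1b* had 216, 94.7, 105, 102 and 142 in BRAFV600E/PGC1αHet and 46.4, 75.1, 70.6 and 34.0 in BRAFV600E/PGC1αNull libraries. Its groups did not overlap, the 1 such gene among the 43, against 0.459% of all genes lower and 0.941% higher. Its log2 fold change was -1.21 ± 0.35 (adjusted p = 0.728), and by the exact permutation test p = 0.00794, the smallest that 126 splits can give, against 1.73% of all genes lower at p under 0.05.

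*Aurka* had 66.7, 14.4, 42.2, 29.4 and 16.5 in BRAFV600E/PGC1αHet and 10.7, 22.2, 7.08 and 7.98 in BRAFV600E/PGC1αNull (-1.34 ± 0.58, adjusted p = 0.998), with 1 BRAFV600E/PGC1αNull library inside the other group's range. The highest values were those of *Rrm2*, at 34.8, 23.2, 39.8, 39.3 and 18.4 against 48.9, 58.1, 24.6 and 89.4 (0.73 ± 0.45), and of the licensing factor *Cdc6*, at 54.5, 19.4, 50.8, 59.8 and 45.0 against 47.2, 77.6, 29.1 and 178 (0.61). Both overlapped, and without BRAFV600E/PGC1αNull replicate 4 or 3 the values were 0.14 or 1.00 for *Cdc6* and 0.46 or 1.06 for *Rrm2*, and 0.34 for *Cdc6* without BRAFV600E/PGC1αHet replicate 2.

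The division markers did not separate the genotypes of this cohort. *Mki67* had 526, 215, 683, 600 and 280.4 in BRAFV600E/PGC1αHet and 585, 478, 398 and 661 in BRAFV600E/PGC1αNull, and *Top2a* 229, 242, 295, 367 and 215 against 292, 276, 241 and 379. *Mcm5* had 88.6, 123, 80.3, 95.3 and 16 against 57.6, 86.5, 77.5 and 94.9. For the remaining genes fixed for full display the ranges were 28.0 to 94.0 against 34.8 to 85.6 for *Ccnb1*, 38.3 to 122 against 48.9 to 129 for *Cdk1* and 42.1 to 127 against 39.1 to 79.1 for *Foxm1*. They were 93.4 to 125 against 72.1 to 161 for *Mcm2*, 292 to 522 against 339 to 487 for *Pcna* and 27.5 to 141 against 49.3 to 116 for *E2f1*. Endothelial markers summed to 455 to 788 in BRAFV600E/PGC1αHet and 1107 to 1966 in BRAFV600E/PGC1αNull libraries and macrophage markers to 322 to 1558 and 896 to 2506. Fibroblast markers summed to 87.9 to 333 and 310 to 1341, with 1 BRAFV600E/PGC1αNull library within the range of the other group. Lymphocyte markers summed to 186 to 456 in BRAFV600E/PGC1αHet and 385 to 784 in BRAFV600E/PGC1αNull libraries. The part of these markers in the values was not tested.

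**Figure D5:**
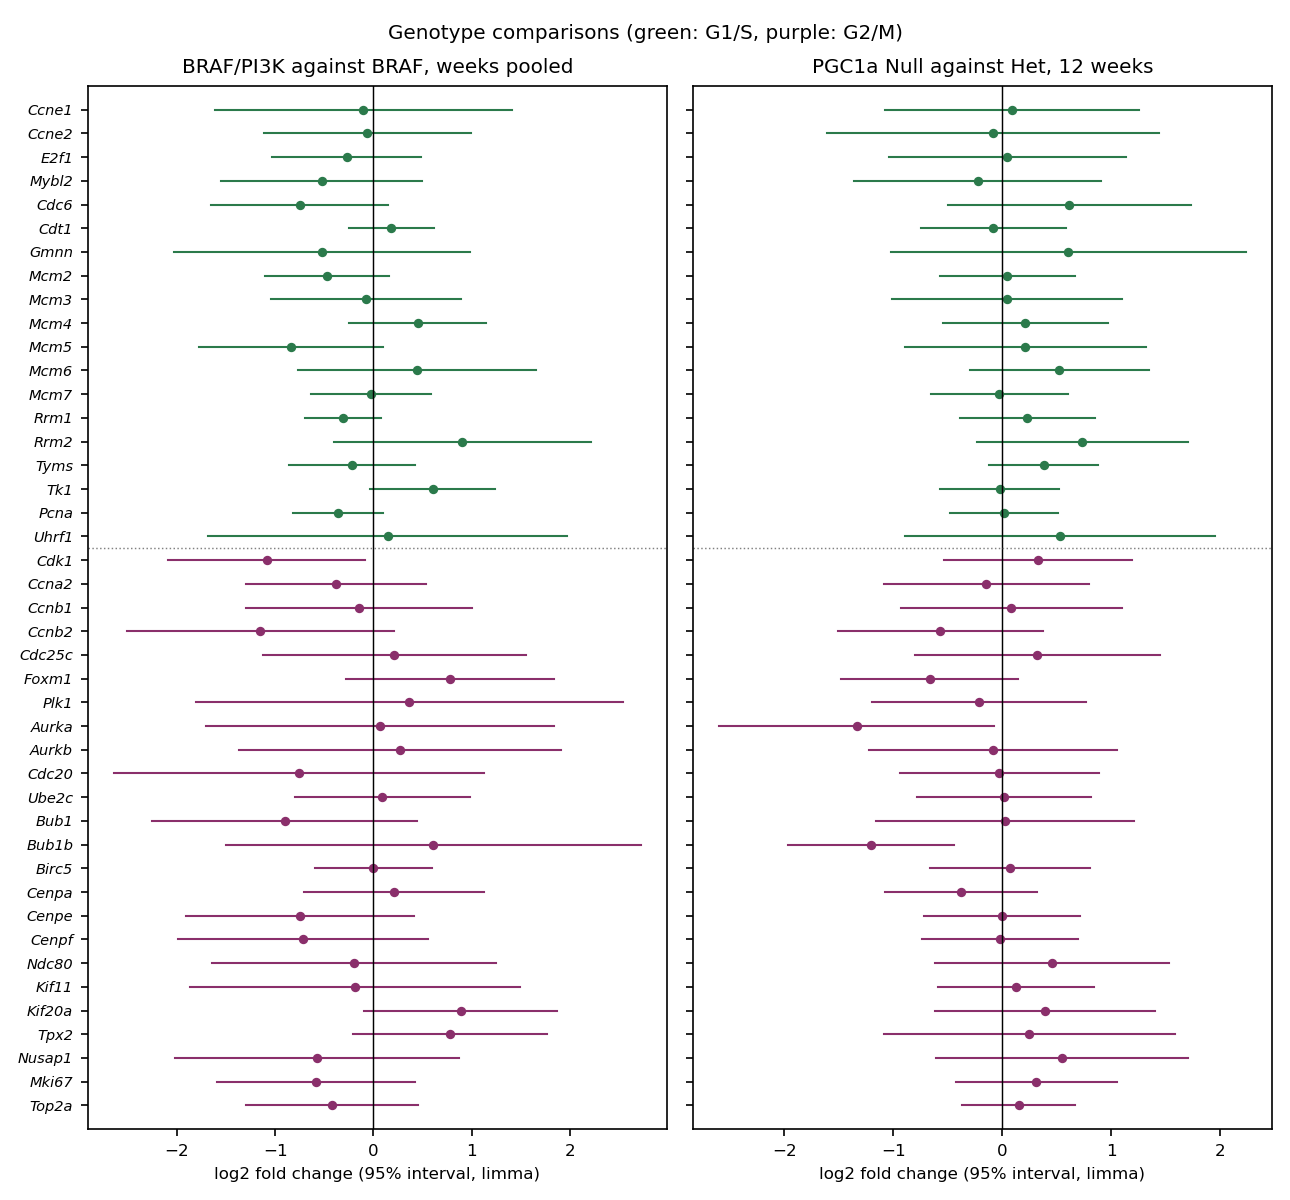
Log2 fold changes of the 43 genes with 95% confidence intervals from limma, for BRAFV600E/PI3KαH1047R against BRAFV600E with weeks pooled and for BRAFV600E/PGC1αNull against BRAFV600E/PGC1αHet at 12 weeks p.i., grouped by phase. With weeks pooled 27 of the 43 points lie below 0, and in the PGC1α cohort 27 lie above 0, most with intervals that span 0.

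Across libraries, 2 relations between a G2/M and a G1/S gene were computed, in 16 tests adjusted together. Over the 14 libraries *Mki67* and *Mcm5* had r = 0.44 (permutation p = 0.115, adjusted 0.295) and rho = 0.46 (p = 0.101, adjusted 0.295). Without the 2 libraries farthest from the *Mki67* median r was 0.75. Within the 6 BRAFV600E libraries r was 0.39, rho -0.03 and r without 2 libraries -0.93. Within the 8 BRAFV600E/PI3KαH1047R libraries these were 0.32, 0.52 and 0.88, so that no common relation was seen. *Top2a* and *Rrm2* had r = 0.42 (permutation p = 0.132, adjusted 0.295) and rho = 0.48 (p = 0.0834, adjusted 0.295), with r = 0.59 without 2 libraries. Within the 6 BRAFV600E and the 8 BRAFV600E/PI3KαH1047R libraries r was 0.60 and 0.56, and 0.89 and 0.90 without 2 libraries of each. Values without 2 libraries within a genotype rest on few points. All weeks are pooled in these libraries, so that differences between weeks enter r and rho. In the 9 libraries of the PGC1α cohort *Mki67* and *Mcm5* had r = 0.27 (exact permutation p = 0.476, adjusted 0.544) and rho = 0.083 (p = 0.843, adjusted 0.899), and r = 0.11 without 2 libraries. *Top2a* and *Rrm2* had r = 0.78 there (exact permutation p = 0.0128, adjusted 0.171) and rho = 0.77 (p = 0.0214, adjusted 0.171), and r = 0.81 without 2 libraries. None of the 16 passed after adjustment.

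Another 82 genes of the cycle, in 5 lists, were looked at beside the members, 79 of which were tested in the PI3K table and 80 in the PGC1α table. From 2 to 6 weeks 54 of 79 were higher (51.4% of all genes). At an unadjusted p under 0.05 by limma 1 was lower, against 5.35% of all genes, and 18 were higher, against 6.58%. By list the 18 were 11 of 38 mitosis genes, 5 of 23 replisome and origin genes, 1 of 6 G1 cyclins and CDKs, 1 of 5 CDK inhibitors and 0 of 7 pocket proteins and E2F factors. Medians were 0.49 and 0.47 for the first pair of lists and -0.15, -0.11 and -0.16 for the others. From 6 to 12 weeks 51 of 79 were lower (50.4% of all genes). At the unadjusted limit 7 were lower and 2 higher, against 3.02% and 2.3% of all genes. The 7 were 5 mitosis genes and 2 replisome genes, with medians of -0.26 and -0.18 for those lists.

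Of these genes only *Ccnd1* and *Cdkn1a* passed the adjusted threshold, with 5 calls in 3 comparisons over weeks that share libraries. Of all genes 0.786% passed from 2 to 12 weeks over both genotypes, and 0.159% and 0.57% from 2 to 6 and from 2 to 12 weeks in BRAFV600E/PI3KαH1047R-driven tumors. *Ccnd1*, cyclin D1, which ERK signaling is known to induce, had 4192 normalized counts at 2 weeks, 7673, 7046 and 4308 at 6 weeks and 9585 and 12823 at 12 weeks in BRAFV600E-driven tumors. In BRAFV600E/PI3KαH1047R-driven tumors it had 2297 and 1957, then 4083, 8587, 8364 and 7070, then 7978 and 10716. It rose from 2 to 12 weeks over both genotypes by a log2 fold change of 1.89 (by limma, adjusted p = 0.0378). Within BRAFV600E/PI3KαH1047R the rise was 2.12 (adjusted p = 0.0390). Every 12 week library was above every 2 week library, as for 6.5% of all genes.

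*Cdkn1a*, the CDK inhibitor p21, had 1835 at 2 weeks, 3954, 2644 and 1911 at 6 weeks and 3918 and 6532 at 12 weeks in BRAFV600E-driven tumors. In the double mutant tumors it had 322 and 628, then 1704, 4364, 4095 and 6334, then 3599 and 5601. It rose from 2 to 12 weeks over both genotypes by 2.69 (by limma, adjusted p = 0.0381). Within BRAFV600E/PI3KαH1047R *Cdkn1a* rose by 3.05 from 2 to 6 weeks (adjusted p = 0.0379) and by 3.32 from 2 to 12 weeks (adjusted p = 0.0309). The 2 week BRAFV600E/PI3KαH1047R libraries, lowest for both genes, were those with the highest fibroblast and lowest AT2 sums, whose part was not tested. In BRAFV600E-driven tumors the step from 2 to 6 weeks was 0.55 for *Ccnd1* and 0.56 for *Cdkn1a* and passed for neither, and the interaction was not called (adjusted p = 0.589 and 0.438). Each of the 5 calls held in 8 to 12 of 20 other settings, with adjusted p from 0.00153 to 0.245 over all of them. Leaving out any 1 of 10 libraries ended at least 1 of the calls, the exceptions being the 2 week BRAFV600E library, BRAFV600E replicates 1 and 3 at 6 weeks and BRAFV600E/PI3KαH1047R replicate 1 at 6 weeks.

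In the pooled comparison of genotypes, 36 of 79 were higher (51.8% of all genes) and none passed. At the unadjusted limit 3 were higher and 1 lower, against 3.46% and 3.38% of all genes. The highest was *Pttg1*, securin, which holds sister chromatids together until anaphase. It had 4.29, then 50.6, 64.1 and 72.5, then 22 and 8.96 in BRAFV600E-driven tumors and 340 and 349, then 961, 179, 248 and 81.5, then 208 and 282 in BRAFV600E/PI3KαH1047R-driven tumors. Every BRAFV600E/PI3KαH1047R library was above every BRAFV600E library, as for 0.0854% of all genes, with a log2 fold change of 3.36 ± 0.62 (by limma, adjusted p = 0.104). The 3 highest values, 961, 349 and 340, were in the libraries with the highest endothelial and fibroblast and the lowest AT2 sums. The part of these markers was not tested. The lowest log2 fold change was that of *Sgo1*, shugoshin, which protects centromeric cohesion (-1.54 ± 0.89). Between BRAFV600E/PGC1αNull and BRAFV600E/PGC1αHet libraries 51 of 80 were higher (51.1% of all genes) and none passed after adjustment. At the unadjusted limit 1 was higher, against 2.66% of all genes, and none was lower, against 1.17%. *Melk*, a mitotic kinase, was highest (0.99 ± 0.89) and *Pttg1* lowest (-0.63 ± 0.45).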

How the data were processed

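RNA of sorted tdTomato+ lung tumor cells was sequenced in 23 libraries, grouped by their labels. The authors estimated transcripts with Salmon, and the deposited tables hold these estimates normalized by DESeq2 to a signal per gene, once for the 14 BRAFV600E and BRAFV600E/PI3KαH1047R libraries and once for the 9 PGC1α libraries. GRCm38, FastQC, Salmon and DESeq2 are named in the submitters' processing notes, with versions not given in the sources used here. The deposited comparison tables hold the authors' fold changes and p-values and were not used. Whole counts could not be recovered from these values, so count tests were not run, depth is unknown and precision is the spread between libraries. The study's methods count animals, tumors and cell lines alike as biological replicates, which does not settle whether each library is a separate animal. Each library has its own sex label, but no label gives an animal for each library.

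Values were compared as log2 (normalized count + 1) with limma 3.58.1 (trend, two-sided) in R 4.3.3, for 17558 and 17424 genes with a mean of at least 10, and p-values were adjusted (Benjamini-Hochberg) over all of them. Courses over both genotypes had genotype as a term, and single-week and interaction values came from a mean per genotype and week. Exact permutation tests, correlations and motif searches used Python 3.11.15, numpy 2.4.6, pandas 2.3.3 and scipy 1.17.1. The fits were tested on simulated data. Any of the 43 members could be named. Every-library values were fixed for 10 of them and for the 2 highest and 2 lowest in 5 comparisons, and other pathway genes were named where they passed after adjustment or were extreme in a genotype comparison. Other values by library are given for genes chosen after their values were seen. Members, lists and tests were chosen with earlier results of these data known. Alternatives were a pseudocount of 4, a mean of at least 40, all genes with any count, quantile normalization, leaving out each library, a replicate block, and sex or week in the fit. Sex was taken as labelled, although *Kdm5d* went against the labels of both 12 week BRAFV600E/PI3KαH1047R libraries.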

Additional observations from a re-analysis of the deposited data

Results flagged for a closer look

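Of 69 sets of 4 or 5 libraries examined, 7 held a library far from the others by Dixon's criterion, which flags about 1 in 20 by chance. That rate is no yardstick here, because some of the genes were chosen for extreme fold changes in these same libraries. The sets also overlap, as the G2/M mean includes *Mki67* and *Kif11*. All values are on the log2 (normalized count + 1) scale. In replicate 1 of the BRAFV600E/PI3KαH1047R group at 6 weeks the mean of the G2/M genes was 6.04 (others 7.13 to 7.21), *Mki67* was at 8.95 (others 10.58 to 10.70) and *Kif11* at 4.84 (others 8.08 to 8.64). In replicate 3 of that group *Mybl2* was at 3.81 (others 5.21 to 5.45). In replicate 5 of the BRAFV600E/PGC1αHet group *Mcm5* was at 4.08 (others 6.35 to 6.95) and *Cdc20* at 4.75 (others 6.27 to 6.79), and in replicate 2 *Cdc6* was at 4.35 (others 5.52 to 5.93).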

How the results depend on the processing

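In the 16 comparisons, the number of the 43 genes passing the adjusted threshold stayed at 0 under every alternative that kept all libraries except 1: with all genes with any count, 1 (*Bub1b*) passed from 2 to 6 weeks in BRAFV600E-driven tumors. Leaving out 1 library each gave 0 to 2 members from 2 to 6 weeks over both genotypes and within BRAFV600E/PI3KαH1047R, and 0 to 1 for PI3KαH1047R at 2 weeks. The G1/S median from 2 to 6 weeks in BRAFV600E-driven tumors was 0.41 for genes with a mean of at least 40. Leaving out 1 library each, the G1/S median was 0.39 to 0.90 from 2 to 6 weeks and -0.40 to 0.15 from 6 to 12 weeks in BRAFV600E/PI3KαH1047R-driven tumors. For BRAFV600E the G1/S and G2/M medians were -1.02 to -0.49 and -1.31 to 0.21 from 6 to 12 weeks and -0.63 to 0.66 and 1.04 to 2.40 from 2 to 12 weeks. For PI3KαH1047R at 12 weeks they were -0.0027 to 0.85 and -0.76 to 0.65, and for its change from 6 to 12 weeks 0.25 to 0.97 and -0.21 to 1.22. For *Mybl2* the log2 fold change was -1.28 to 0.48 from 2 to 6 weeks, positive without the 2 week BRAFV600E library, and -0.09 to 0.52 from 6 to 12 weeks, with -0.02 and -0.0910 without either 12 week BRAFV600E/PI3KαH1047R library. Among alternatives that keep all libraries, medians under 0.40 in size often moved by over 1.5 times, and the G2/M median from 2 to 6 weeks in BRAFV600E/PI3KαH1047R-driven tumors was 0.63 for genes with a mean of at least 40 and the G1/S median 0.85 with sex in the fit. Over the 43 genes, leaving out 1 library moved the log2 fold change of 11 (2 to 6 weeks in BRAFV600E) to 40 genes (4 comparisons) by over 1.5 times, and 5 to 24 changed sign. For PI3KαH1047R with weeks pooled these were 35 and 16, at 6 weeks 35 and 17, and for BRAFV600E/PGC1αNull against BRAFV600E/PGC1αHet 40 and 24. Contrasts with the 2 week BRAFV600E group have no value without its only library.

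Deviations of same-numbered libraries had r of -0.28 to 0.26 (2 of 21 pairs over 0.1), against -0.26 to 0.23 (11 of 45) for different numbers. In the PGC1α table these were -0.47 to 0.21 (2 of 4) and -0.36 to 0.55 (7 of 16). In groups of 2 the deviations mirror each other, so these values cannot decide whether the numbers pair samples. With the replicate block the calls from 2 to 12 weeks over both genotypes were 2 rather than 138 genes, and none of the 5 calls of *Ccnd1* and *Cdkn1a* passed (adjusted p of 0.119 for both over both genotypes). The number of genes passing also varied with the other settings, from 0 to 493 there, from 0 to 102 (main 9) from 2 to 6 weeks over both genotypes, from 0 to 698 (28) and 3 to 965 (100) in BRAFV600E/PI3KαH1047R-driven tumors from 2 to 6 and 2 to 12 weeks, and from 0 to 268 (3) for PI3KαH1047R at 2 weeks. From 2 to 6 weeks 21 members had an unadjusted p under 0.05 by limma and 12 by the exact permutation chosen after seeing the data. The causes were not tested.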
